A study of Mus musculus with 10 samples.

Results

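The 10 genes described here make, carry, sense and degrade retinoic acid. They are Rara, Rarb, Rarg, Cyp26a1, Cyp26b1, Cyp26c1, Aldh1a2, Crabp1, Crabp2 and Stra6, taken by name from the 22380 protein-coding genes of GENCODE vM1. A gene's sites are those of the 4 deposited ChIP-seq lists that share at least 1 base with its body or the 5 kb on either side, in mm9. The lists hold 8876 Suz12 sites, 5722 of which are also in the Suz12-depleted list, 5242 Pcl3 sites and 678 H3K27me3-depleted sites. At the 10 genes lay 16 Suz12 sites, 8 of them depleted, 14 Pcl3 sites and 0 H3K27me3-depleted sites, each site counted once.

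Suz12-TAP and H3K27me3 were each profiled by ChIP-seq in 1 library from ESCs expressing scramble shRNA and 1 library from ESCs expressing Pcl3 shRNA. These cells have the genotype Suz12 Suz12TAP/+, made in gene trap line XG122, so that 1 Suz12 allele carries a TAP tag at its own locus and is recovered with FlagM2 antibody, and each population has 1 input DNA library. The input of the knockdown cells is labelled with Pcl3 shRNA 6, while the ChIP labels give no shRNA number. Pcl3-TAP was profiled in E14 ESCs that express a tagged, shRNA-resistant Pcl3 together with Pcl3 shRNA 6 or shRNA 7, with 1 ChIP and 1 input library each. There is 1 Pcl3 site list, and the sources used here do not say whether it comes from 1 of these libraries or from both. The lists give 1 p-value per site and no read counts, so the depth behind a site is not known from them, fold changes were not computed, and no list has a replicate. Every count below therefore describes these libraries, and no test was made. A site absent from a list did not pass the authors' cutoff, which does not show that the signal was equal or zero.

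Retinol enters cells through receptors such as Stra6 and is oxidized to retinaldehyde, from which Aldh1a2 makes retinoic acid. The binding proteins Crabp1 and Crabp2 hold retinoic acid in the cytoplasm, the Cyp26 enzymes hydroxylate it for removal, and the receptors Rara, Rarb and Rarg bind DNA as partners of retinoid X receptors, often at direct repeats of a short half-site. Retinoic acid drives ESCs out of self-renewal and patterns the embryonic hindbrain, spinal cord and limbs. PRC2, to which Suz12 and Pcl3 belong, trimethylates H3K27 at many silent developmental genes. No expression was measured in these libraries, so the ESC identity of the cells could not be checked at the RNA level. The paper reports lower Oct4 (Pou5f1) and Nanog and more cells of differentiated appearance in Pcl3 shRNA ESCs than in scramble ESCs. Whether this bears on the sites described here was not tested. Of the 6 ESC markers examined, Pou5f1, Nanog, Sox2 and Zfp42 had no Suz12 site, and Klf4 and Esrrb had one or more.

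The sequences that carry retinoic acid receptor motifs under Suz12 sites are shown first. A DR5 element was searched as a pair of half-sites in the same orientation with 5 bases between them, each half-site being the hexamer AGGTCA, the related hexamer AGTTCA, or the same with G as the first base, GGGTCA in one case and GGTTCA in the other, on both strands of mm9. The 3 elements found in the 16 Suz12 sites are given on the strand of the element, 5′ to 3′, with 12 bases on either side and the half-sites in capitals.
Rarb, chr14:17408015-17408055, minus strand: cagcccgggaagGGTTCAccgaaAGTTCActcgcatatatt
Cyp26a1 distal, chr19:37770387-37770427, plus strand: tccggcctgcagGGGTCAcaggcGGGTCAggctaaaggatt
Cyp26a1 proximal, chr19:37772254-37772294, minus strand: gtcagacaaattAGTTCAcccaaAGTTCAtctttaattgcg

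The Rarb element is centered at -49 bp from the Rarb coding transcript start that its Suz12 site covers. The 2 Cyp26a1 elements are centered at -1891 bp and -24 bp from the Cyp26a1 start. In all, 3 of the 16 Suz12 sites held a DR5, in a list where 0.394% of the 8876 sites did. With both half-sites restricted to AGTTCA or AGGTCA, 1 of the 16, the site over the Cyp26a1 start, held one, beside 0.0789% of all sites. In windows of equal length, the 500 bp around each center, the counts were 2 of 16 and 0.146% of all sites. In the 300 bases before a gene start, DR5 was present at 0.0715% of the 22374 protein-coding genes with a complete sequence there. The same half-sites with 2 bases between them, DR2, were in 0 of the 16 sites and in 0.406% of all Suz12 sites. Rarb and Cyp26a1 are textbook examples of genes that answer retinoic acid through such repeats, so the matches are a description of the sequence under the sites and not a test.

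All 10 genes had a Suz12 site, where 28.8% of protein-coding genes did. With sites limited to a p-value of at most 1e-10 or 1e-12, 9 of the 10 did. The share over all genes was not recomputed at these cutoffs. The paper says that the less significant Suz12 sites it adds to earlier lists could be weak binding or could come from raised Suz12 in the tagged cells. A Suz12-depleted site was present at 5 of the 10 (20.6% of all genes), a Pcl3 site at 6 (14.7%) and an H3K27me3-depleted site at 0 (3.13%). Among all genes with a Suz12 site, 71.7% also had a depleted site and 47.7% a Pcl3 site, and with 10 genes, of which Cyp26a1 and Cyp26c1 share sites, no difference from these shares is read. The genes were chosen for their pathway, many of whose members are developmental regulators, and the longest of them, Rarb, spans 388026 bp against a median of 15420.5 bp for all genes. Counting only the 2 kb around the annotated gene start left 6 of the 10 with a Suz12 site, where 23.1% of all genes had one.

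The genes differed widely in the strength of Suz12 binding (the plot of Suz12 binding by gene). The 3 Cyp26 genes, Aldh1a2 and Crabp1 held every one of the 8 depleted sites, with −log10 p of Suz12 binding in scramble cells from 37.0 upward and a median of 176. The sites outside the depleted list numbered 8, with −log10 p from 9.89 to 25.1 and a median of 13.9, and they were all the Suz12 sites of Rara, Rarb, Rarg, Crabp2 and Stra6, with 2 of the 7 at Cyp26c1. The ranges did not overlap, and a division by strength is also what the whole Suz12 list shows, where 98.2% of sites at 30 or more and 24.0% of those under 20 were depleted. The paper raises the possibility that a change is harder to detect at weaker sites, so absence from the depleted list says less there. The depleted list repeats the p-value of binding, so it says that Suz12 binding was lower in Pcl3 shRNA cells and not by how much. The paper reports that knockdown also lowered Suz12 mRNA and protein. It says that this may account for part of the reduced binding, which was not tested here.

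**Figure D1:**
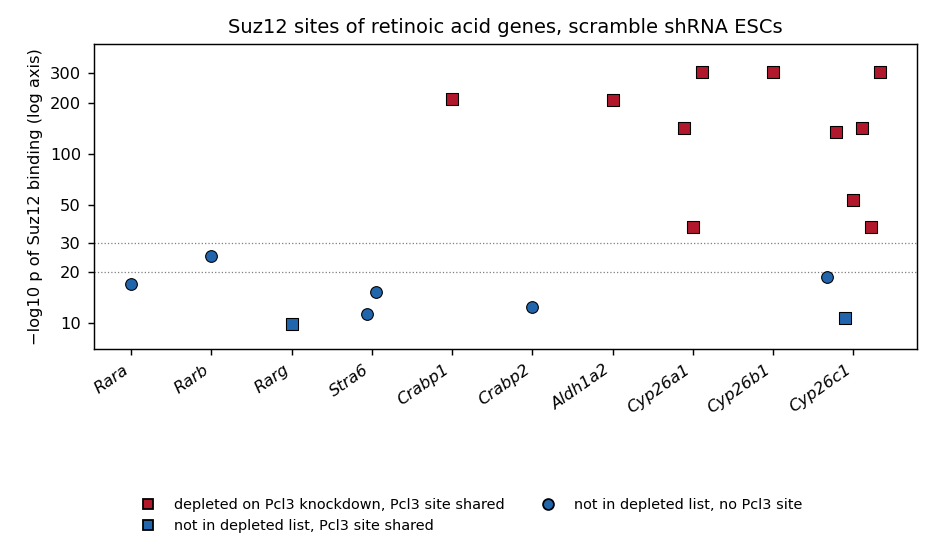
Each mark is 1 Suz12 site at its −log10 p of binding in scramble shRNA cells (log axis, with p-values written as 0 placed at 307), by gene. Red squares are sites in the Suz12-depleted list, blue marks are sites outside it, and squares share at least 1 base with a Pcl3 site, so the red marks lie at 37.0 and above and the blue ones at 25.1 and below. Cyp26a1 and Cyp26c1 share 3 of their sites, which are drawn under both, and the dotted lines mark 20 and 30.

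The enzymes that degrade retinoic acid were the most broadly covered. Cyp26c1 and Cyp26a1 are neighbours on the plus strand of chromosome 19, Cyp26c1 from 37760071 to 37767888 and Cyp26a1 from 37772298 to 37776018, with 4409 bp between them. They shared 3 Suz12 and 2 Pcl3 sites and are not independent. Their 7 Suz12 sites spanned 14900 bp, with gaps of 50 to 700 bp, and covered 12800 bp.

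The site over the Cyp26a1 start ran from 37771101 to 37774300 and had a p-value written as 0, as it is at 435 Suz12 sites in all. It lay wholly within a Pcl3 site of 5400 bp, from 37770301 to 37775700, with a p-value of 2.62e-262, rank 245 of 5242. This Pcl3 site reached upstream over the distal DR5 as well as the proximal one. The Suz12 site that holds the distal DR5, from 37769501 to 37770950, had a p-value of 9.87e-38 and the lowest −log10 p of the 8 depleted sites. Pcl3 covered 44.8% of it.

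Along Cyp26c1 the sites differed from each other. The site over its start, from 37759401 to 37760350, had a p-value of 1.58e-19, was not in the depleted list and shared no base with Pcl3. From 480 bp into the gene onward lay a site of 2500 bp with a p-value of 1.56e-136, depleted and 94.0% covered by Pcl3. A narrow site followed after a gap of 50 bp, from 37763101 to 37763750, with a p-value of 1.97e-11, outside the depleted list. Pcl3 covered 84.6% of it, through a Pcl3 site from 37762501 to 37763650 that also reached over the preceding depleted site. The depleted sites from 37764451 to 37765900 and from 37766401 to 37769000 had p-values of 3.57e-54 and 7.07e-144, and Pcl3 covered 93.1% and 100% of them. The strongest sites of Cyp26c1 thus lay in its body and beyond, not on its start, whereas at Cyp26a1 the strongest site lay on the start.

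Cyp26b1, on the minus strand of chromosome 6 from 84521938 to 84543740, had 1 Suz12 site of 9000 bp, from 84531801 to 84540800, with a p-value written as 0. It was depleted. It began 2940 bp into the gene, covered an internal coding transcript start at 84538632 and overlapped coding sequence and UTR. A Pcl3 site of 8200 bp, also with a p-value written as 0, lay inside it, and a second of 600 bp with a p-value of 2.34e-11 touched its far end. Suz12 coverage of Cyp26c1, Cyp26b1 and Cyp26a1 was 11388, 9000 and 6353 bp of gene plus flanks, ranks 75, 167 and 332 among the 6442 protein-coding genes with a Suz12 site, whose median was 1400 bp. As shares of that interval the coverage was 63.9%, 28.3% and 46.3%. The Cyp26c1 coverage includes sites outside its body, among them part of the one over the Cyp26a1 start. The Cyp26a1 coverage does too. Of its 3 sites only the one over its start overlapped the gene body, and 1197 bp of that site lay outside. The Cyp26b1 site lay wholly inside its gene.

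**Figure D2:**
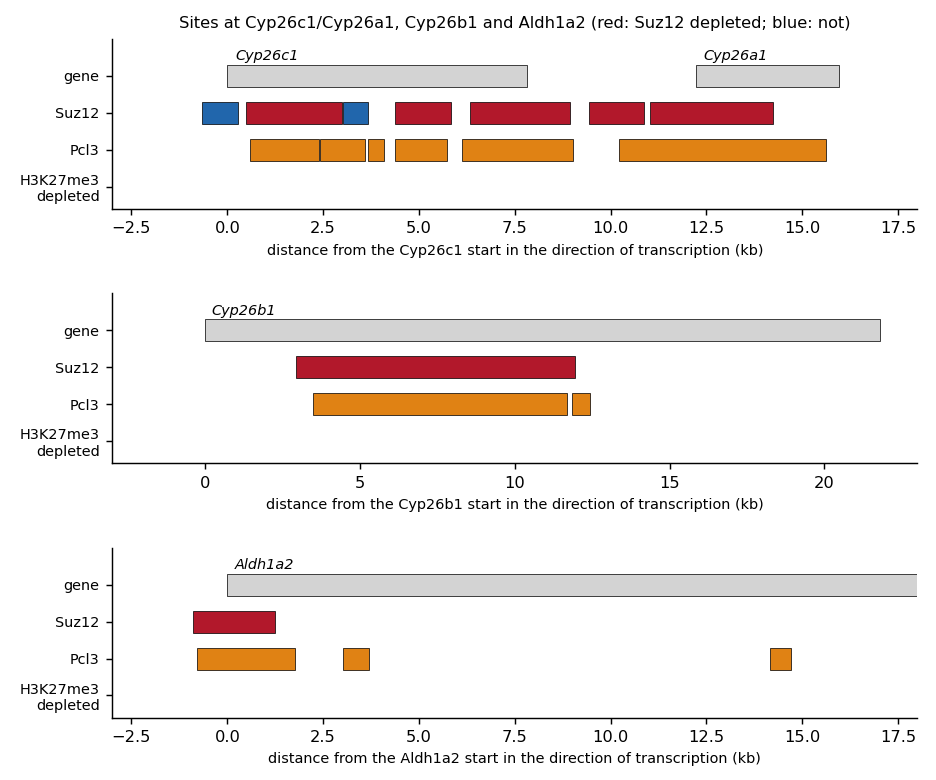
Deposited sites are drawn to scale by distance from the gene start in kb, in the direction of transcription, with gene bodies in grey, Suz12 sites in red where depleted and blue where not, and Pcl3 sites in orange. Suz12 and Pcl3 sites run from Cyp26c1 to Cyp26a1 with short gaps, Cyp26b1 carries 1 Suz12 site of 9000 bp inside the gene, the H3K27me3-depleted row is empty in each panel, and Aldh1a2 continues beyond the right edge.

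Aldh1a2, which makes retinoic acid in the embryo, lies on the plus strand of chromosome 9 from 71063596 to 71144050. Its single Suz12 site, from 71062701 to 71064850, covered the start and had a p-value of 1.12e-209, rank 743 of 8876. It was depleted. A Pcl3 site with a p-value of 4.71e-134 covered 95.3% of it. Further Pcl3 sites lay 3005 bp and 14155 bp into the gene, with p-values of 1.52e-11 and 3.50e-09, and shared no base with Suz12. They were 2 of only 3 Pcl3 sites of the 14 that shared none, and the third lay in Cyp26c1 from 37763751 to 37764150 with a p-value of 2.19e-08. Across the whole list 76.9% of Pcl3 sites shared a base with a Suz12 site, against 11 of the 14 here.

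The binding proteins were on opposite sides. Crabp1, on chromosome 9 from 54612555 to 54620917, had a Suz12 site over its start from 54612051 to 54614200 with a p-value of 1.35e-212, rank 729. It was depleted and 93.0% covered by Pcl3. The stronger Pcl3 site there had a p-value of 2.06e-79 and a second one, 405 bp before the start, had 2.79e-08. Crabp2, on chromosome 3 from 87752588 to 87757298, had a Suz12 site over its start from 87752051 to 87752800 with a p-value of 2.96e-13, rank 6580, not depleted and without Pcl3. The nearest Pcl3 site was 22163 bp from the Crabp2 start. The sites of the paralogs were 2150 bp and 750 bp wide.

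The receptors, which carry the retinoic acid signal to DNA, had 1 Suz12 site each and none in the depleted list. At Rara, on the plus strand of chromosome 11 from 98789132 to 98836256, the site ran from 98797301 to 98798100 with a p-value of 7.35e-18. It lay inside the gene, 912 bp before an internal coding transcript start at 98799012, and not at the first start. At Rarb, on the minus strand of chromosome 14 from 17263356 to 17651381, the site ran from 17407451 to 17408600 with a p-value of 7.83e-26. It covered the internal coding transcript start at 17407986, the one with the DR5, and lay 242781 bp downstream of the first start. Rara and Rarb had no Pcl3 site. At both genes Suz12 was thus near an internal start rather than the first one.

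Rarg, on the minus strand of chromosome 15 from 102065369 to 102087948, differed from the other receptors. Its Suz12 site covered the gene start, from 102087401 to 102088000, with a p-value of 1.28e-10, rank 7392, the weakest of the 16. A Pcl3 site of 650 bp with a p-value of 8.60e-11 covered the whole of it. Rarg was the only gene of the 10 with Pcl3 and without a depleted site.

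Stra6, the retinol transporter, had Suz12 sites from 57908551 to 57909200 and from 57961001 to 57961800 on chromosome 9, with p-values of 4.44e-12 and 4.87e-16. The annotated Stra6 gene runs from 57911595 to 58001803 and overlaps Ccdc33 on the other strand. Both sites lie within Ccdc33, and the coding starts of Stra6 nearest to them are 17917 bp and 15095 bp away. They were the only ones of the 16 farther than 5 kb from a coding start of the gene or of the adjoining Cyp26 gene, and when each site was given to the nearest gene start alone, Stra6 had none.

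Depletion followed the strength of binding across the whole Suz12 list, so the genes were read against sites of like strength, in bands set after their values were seen. Of all 8876 Suz12 sites 64.5% were in the depleted list, against 8 of 16 here, or 50.0% (95% Wilson interval 28.0% to 72.0%, over sites). Counting sites with the center of a depleted site within 2 kb, the share here was 62.5%, and that over all sites was not recomputed. At a −log10 p under 20 the depleted list held 24.0% of all sites and 0 of the 7 at these genes. Between 20 and 30 it held 75.8% of all sites, and the Rarb site, the single one here, was outside it. At 30 or more it held 98.2% of all sites and 8 of 8 here. In these 3 bands only Rarb, with 1 site, went against the majority of its band. The band under 20 is mixed, with a depleted share of 4.96% at 6 to 10, 28.4% at 10 to 15 and 51.6% at 15 to 20. The sites of Rara (17.1) and of the Cyp26c1 start (18.8) and the stronger Stra6 site (15.3) fall in the last of these. None of them was depleted, so a match to sites of like strength is not read for the weaker sites.

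**Figure D3:**
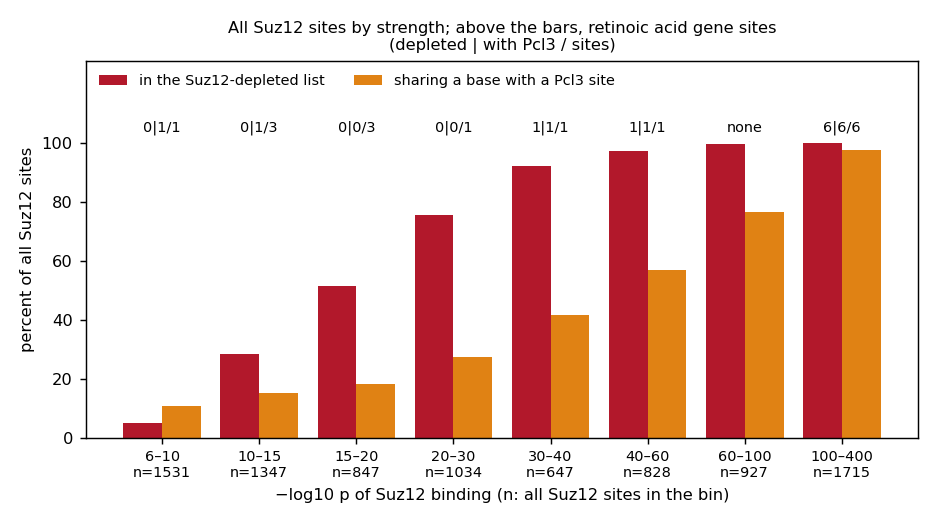
Bars give the percent of all Suz12 sites in each bin of −log10 p that are in the depleted list (red) or share a base with a Pcl3 site (orange). The labels above give the retinoic acid gene sites of the bin as depleted, with Pcl3, and all, for example 6 depleted and 6 with Pcl3 of 6 in the strongest bin, where 100% and 97.7% of all sites are.

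Pcl3 shared at least 1 base with 10 of the 16 Suz12 sites, or 62.5% (38.6% to 81.5%), and with 44.3% of all Suz12 sites. All 8 depleted sites had Pcl3, and of the 8 others the Rarg site and the narrow Cyp26c1 site did. At a −log10 p of 30 or more Pcl3 was at 76.0% of all sites and at 8 of 8 here, and under 20 it was at 13.9% of all sites and at 2 of 7 here. Those 2 were the weakest of the 16 sites, and the 6 non-depleted sites above them, Rarb included, had no Pcl3. Over all 16 sites the median −log10 p was 31.1 (95% interval of the median 12.5 to 209), beside 26.2 for all Suz12 sites. Over the other settings tried the median at these genes ran from 21.1 to 53.4. These values lie on both sides of 26.2, which was not recomputed, so no difference is read. The 14 Pcl3 sites had a median −log10 p of 21.3, beside 16.3 for all Pcl3 sites.

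The sites differed in width as in strength. Depleted sites were 1450 to 9000 bp wide, with a median of 2325 bp, and the others 600 to 1150 bp, with a median of 775 bp, beside 1100 bp for all Suz12 sites. Width and strength are both properties of the joined windows and are not independent measures (the plot of width against strength).

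**Figure D4:**
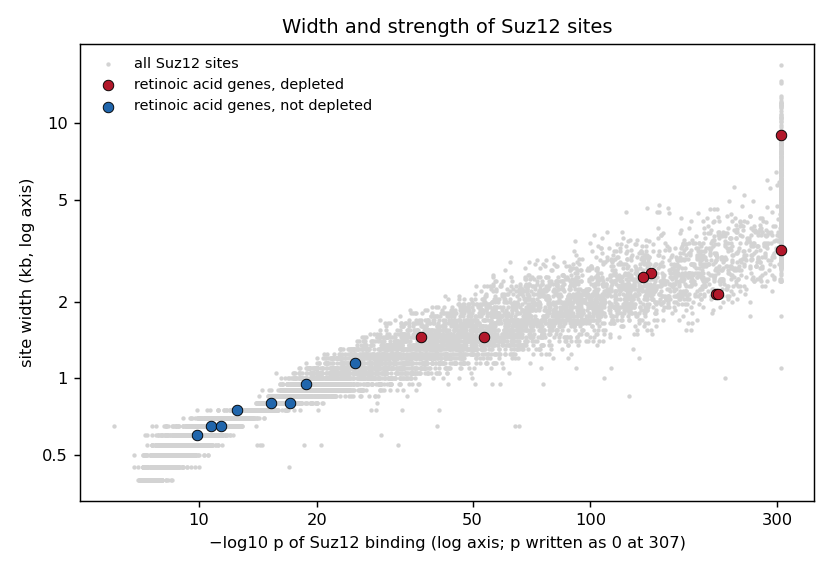
Each grey point is 1 of the 8876 Suz12 sites, by −log10 p of binding and width in kb, both on log axes, with p-values written as 0 at 307. The depleted sites of the retinoic acid genes (red) lie at widths of 1450 bp or more and the others (blue) at 1150 bp or less, along the trend of the grey points.

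None of the 10 genes had a site of decreased H3K27me3, where 3.13% of all genes do, so 0 of 10 is near the background. That share is over all genes, and the share over genes with a depleted Suz12 site was not computed. The nearest site of decreased H3K27me3 lay 23363 bp from the Crabp2 start, the next 133106 bp from that of Stra6, and the median distance over the 10 starts was 1161943 bp. Strong Suz12 sites in the depleted list, such as those of Cyp26a1 and Cyp26b1, thus had no site in the H3K27me3-depleted list. This does not show that H3K27me3 was unchanged there, and the paper reports a widespread decrease of the mark on knockdown. The H3K27me3-depleted list has 678 sites from a comparison of a different antibody, and a difference in its sensitivity from the Suz12 comparison was not tested.

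The base composition of the Suz12 sites was moderate. CpG density over the whole site had a median of 4.12 CpG per 100 bp, from 1.69 to 7.50, beside 5.41 for all Suz12 sites. It was 4.51 at the depleted sites and 3.58 at the others. The Rarg site had the highest density of the 16 and the narrow Cyp26c1 site the lowest, and neither was depleted, so density did not order the sites as strength did. The letters GCGCGC were present in all 8 depleted sites and in 1 of the 8 others, that of Rarb, and in 52.5% of all Suz12 sites. The depleted sites are wider, and in the 500 bp around the center the counts were 4 of 8 and 1 of 8, beside 37.5% of all sites.

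The 300 bases before the bound start are shown for Rarb and Cyp26a1, which hold DR5 elements and differed in Suz12 strength, and for Crabp1 and Aldh1a2, which had nearly equal Suz12 strength and differed in CpG content. Each is read 5′ to 3′ in the direction of transcription from mm9, and capitals mark every CpG.
Crabp1, chr9:54612255-54612554, plus strand: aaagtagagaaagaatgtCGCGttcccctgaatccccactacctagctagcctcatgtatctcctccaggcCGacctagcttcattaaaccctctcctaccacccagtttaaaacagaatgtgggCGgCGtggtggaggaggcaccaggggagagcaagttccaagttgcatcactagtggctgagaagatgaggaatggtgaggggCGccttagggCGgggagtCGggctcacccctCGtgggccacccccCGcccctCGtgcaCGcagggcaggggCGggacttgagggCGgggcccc
Rarb, chr14:17407987-17408286, minus strand: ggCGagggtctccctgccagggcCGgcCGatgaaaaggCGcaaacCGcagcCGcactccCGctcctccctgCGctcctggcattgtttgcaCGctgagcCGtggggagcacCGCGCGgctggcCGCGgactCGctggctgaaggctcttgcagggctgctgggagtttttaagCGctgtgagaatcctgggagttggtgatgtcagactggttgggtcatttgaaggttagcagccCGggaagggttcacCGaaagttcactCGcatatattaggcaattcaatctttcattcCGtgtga
Cyp26a1, chr19:37771998-37772297, plus strand: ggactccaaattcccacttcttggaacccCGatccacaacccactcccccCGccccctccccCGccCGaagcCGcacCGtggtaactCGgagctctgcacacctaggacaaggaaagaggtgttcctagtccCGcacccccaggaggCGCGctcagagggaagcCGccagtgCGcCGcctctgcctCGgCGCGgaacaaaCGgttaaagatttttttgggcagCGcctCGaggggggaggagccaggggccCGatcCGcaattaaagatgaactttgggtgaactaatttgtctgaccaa
Aldh1a2, chr9:71063296-71063595, plus strand: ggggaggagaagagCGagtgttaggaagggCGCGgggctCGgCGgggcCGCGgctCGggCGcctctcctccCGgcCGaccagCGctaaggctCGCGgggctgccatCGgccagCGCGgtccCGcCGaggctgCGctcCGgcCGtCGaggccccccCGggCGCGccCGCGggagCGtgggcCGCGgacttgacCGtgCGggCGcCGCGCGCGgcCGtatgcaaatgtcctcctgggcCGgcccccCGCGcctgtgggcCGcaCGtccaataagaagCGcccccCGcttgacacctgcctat

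These stretches held 14 CpG at Crabp1, 21 at Rarb, 21 at Cyp26a1 and 46 at Aldh1a2. Crabp1 and Aldh1a2 had 4.67 and 15.3 CpG per 100 bp, with −log10 p of Suz12 binding of 212 and 209. They were picked for this contrast, and over their whole Suz12 sites the densities were 5.21 and 7.44 CpG per 100 bp. Rarb and Cyp26a1 each had 7.00 CpG per 100 bp and 1 DR5, with −log10 p of 25.1 at Rarb and a p-value written as 0 at Cyp26a1. Over all protein-coding genes the median in the same window was 3.00 CpG per 100 bp.

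A further 22 genes of the pathway, listed by name, were found in the annotation. Of these 16 had a Suz12 site, 16 a depleted one, 10 a Pcl3 site and 3 an H3K27me3-depleted site, beside 28.8%, 20.6%, 14.7% and 3.13% of all protein-coding genes. Among all genes with a Suz12 site, 71.7% had a depleted one. The genes were listed for their part in the pathway, and nothing particular to a subgroup is read from the counts that follow. Receptors and corepressors (Rxra, Rxrb, Rxrg, Ncor1 and Nrip1) had a Suz12 site in 3 of 5 and a Pcl3 site in 1. That 1 was Rxrg, where a Pcl3 site with a −log10 p of 9.29 shared only 4 bp with the gene plus flanks. The 3 retinoic acid receptors had no depleted site under the 5 kb rule, although one lay 6645 bp beyond the end of Rara. Of the retinoid X receptors, Rxra and Rxrg had depleted Suz12 sites, with −log10 p up to 44.3 and 33.4, and Rxrb had no Suz12 site. These receptors, and the enzymes and carriers named next, were picked out after their values were seen. Enzymes of synthesis and turnover (Rdh10, Dhrs3, Aldh1a1, Aldh1a3, Lrat, Rdh11 and Cyp1b1) had depleted sites in 5 of 7 and Pcl3 in 3. Of these, Aldh1a3, which makes retinoic acid as Aldh1a2 does, had a largest −log10 p of 124 and Lrat, which esterifies retinol for storage, had 122, and both had Pcl3. Rdh10 and Dhrs3, which interconvert retinol and retinaldehyde, had 43.0 and 80.9 and no Pcl3 site. Of the carriers (Rbp2, Rbp4 and Fabp5) 2 of 3 had a Suz12 site, both depleted, Rbp4 at 100 and Fabp5 at 28.8.

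Genes known to answer retinoic acid (Hoxb1, Hoxd4, Meis1, Meis2, Stra8, Tgm2 and Gbx2) had depleted Suz12 sites in 6 of 7 and held the 3 genes with decreased H3K27me3. These were Hoxb1 and Meis1 on chromosome 11, with p-values for decreased H3K27me3 of 2.90e-26 and 7.99e-08, and Hoxd4 on chromosome 2 with 3.18e-08. The broadest Suz12 coverage of the 22 was at Meis1 (12268 bp), Meis2 (10650 bp) and Gbx2 (9414 bp), homeobox genes of patterning, beside 11388 bp at Cyp26c1.

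Cyp26c1, with the longest Suz12 coverage of gene plus flanks among the 10, was compared with all other protein-coding genes by the Euclidean distance of log10(covered bp + 1) over the 4 lists. The nearest were Nkx2-3 (distance 0.0443), Hlx (0.0478), Emx2 (0.0549), Ebf3 (0.0563) and Six2 (0.0590). Each had 10178 to 11344 bp of Suz12, 9350 to 11294 bp of Pcl3 and no decreased H3K27me3. The likeness rests on 4 values per gene and is a description only. Part of the Cyp26c1 coverage lies outside its body, between it and Cyp26a1 and over the Cyp26a1 start, so the likeness is not of Cyp26c1 alone.

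At the edge of the rule, the farthest sites counted lay 3298 bp (Cyp26a1) and 3213 bp (Cyp26c1) from the gene body, each belonging to the neighbouring Cyp26 gene or the stretch between. The nearest sites left out at a gene other than Cyp26a1 lay beyond the end of Rara, a depleted Suz12 site 6645 bp away from 98842901 to 98844650 with a p-value of 1.61e-95, and a Pcl3 site 7045 bp away with 8.01e-13. With a flank of 10 kb Rara would have had a depleted site and a Pcl3 site.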

How the data were processed

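Mouse ESC ChIP-seq lists were analysed: Suz12-TAP and H3K27me3 in scramble and Pcl3 shRNA cells, and Pcl3-TAP, from 6 ChIP and 4 input libraries. Reads of 30 bases had been placed on mm9 by the authors using bowtie. They kept unique alignments, scaled paired libraries to equal background, tested 400 bp windows with the Skellam distribution (cutoff 1e-07), joined significant windows and deposited 1 p-value per site, the only measured unit. Whether the Pcl3 libraries were pooled, and the bowtie version, are not given in the sources used here.

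Here sites were assigned to genes of GENCODE vM1 (gene body plus 5 kb). A Suz12 site was depleted if the depleted list held the same start and end. P-values written as 0 were placed at the largest finite −log10 value of the list. All site ends lay within the chromosomes of the mm9 sequence used (0 exceptions). The members and lists were chosen with earlier results of these data known. Some pathway genes and sequences are not reported here. The 10 genes were named in full, and of the wider pathway those with decreased H3K27me3 and the 3 with the broadest Suz12 coverage, beside examples of each group. Coordinates are 1-based. Shares have 95% Wilson intervals, which cover sampling of sites only and take neighbouring sites as independent. The overlap and motif functions were tested on simulated data. Scripts ran in Python 3.11.15 with pandas 2.3.3 for tables, numpy 2.4.6, and statsmodels 0.14.6 and scipy 1.17.1 for intervals. Figures were drawn with matplotlib 3.10.9.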

Additional observations from a re-analysis of the deposited data

How the results depend on the processing

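Of 68 recomputed values, 65 stayed within 1.5 times the count or within the interval, and 3 moved. Within 2 kb of the annotated gene start, 6 genes had a Suz12 site, since the sites of Rara, Rarb, Cyp26b1 and Stra6 lie elsewhere. Within 2 kb of any coding transcript start, an alternative chosen after the data were seen, the count was 9. In the 500 bp around the site center, 5 Suz12 sites held GCGCGC, a window shorter than most sites. With both half-sites restricted to AGTTCA or AGGTCA, 1 site, that of Cyp26a1, held a DR5. The number of genes with decreased H3K27me3 was 0 under every flank, cutoff, assignment and chromosome setting tried. With a flank of 10 kb, 6 genes had a depleted and 7 a Pcl3 site. Merging Suz12 sites over gaps of up to 1 kb gave 10 sites with a median −log10 p of 21.1. Leaving out Rara, the 1 member on chromosome 11, left 5 genes with a depleted site. No replicate could be left out, since no list is divided by replicate, and the lists do not give the depth behind a site.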
